A study of Drosophila melanogaster with 4 samples.

Results

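The regions described here are the HP2 clusters in the 2 Mb at the centromere-side end of the assembled X chromosome and right arm of chromosome 3 (3R) of Drosophila melanogaster. HP2 is a nonhistone chromatin protein. Membership was set by position: a cluster belonged when its midpoint lay above 20422827 on X or at most at 2000000 on 3R (FlyBase r5). The choice was made with earlier results of these data known. Replicate 1 held 122 such clusters of 4728 in its list, 37 on X and 85 on 3R. Replicate 2 held 118 of 4163, 43 on X and 75 on 3R. The authors' combined list held 200 of 7037, 84 on X and 116 on 3R. The labels describe ChIP-seq with the antibody Ab2-90 on nuclei from heads of mixed adults of the wild-type strain Oregon-R-modENCODE, with 2 ChIP samples and 2 inputs. All 4 samples share this strain and tissue, the sexes are not separated in the labels, and whole heads pool many cell types. The labels do not say if the replicates are separate collections of flies, so replicate error here may be technical only.

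HP2 is known to bind HP1a, the protein that reads methylated lysine 9 of histone H3 in heterochromatin, and mutations in its gene suppress position effect variegation. On polytene chromosomes it is known at the pericentric heterochromatin, on chromosome 4 and at scattered euchromatic sites. The proximal end of assembled X borders a large block of satellite repeats and ribosomal DNA, and proximal X carries the piRNA locus flamenco. The position of flamenco and of other genes on r5 was not determined here, since the gene table at hand is on another release, and no base sequence was at hand to print.

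In both stretches HP2 occurred as separate short clusters rather than as a continuous domain. Clusters covered 4.40% of proximal X in replicate 1 (88.1 kb). In replicate 2 they covered 4.71% (94.2 kb), and the mean was 4.56% ± 0.22 (SD, n = 2). On proximal 3R the shares were 9.90% (198.0 kb) and 8.65% (172.9 kb), with a mean of 9.27% ± 0.89 (SD, n = 2). Proximal 3R thus exceeded proximal X by 5.50 percentage points in replicate 1 and 3.94 in replicate 2 (mean 4.72 ± 1.10, SD, n = 2), more than the spread between replicates. The mean fell to 1.30 points when only clusters at or above their list's median score were kept. With a stretch of 4 Mb it fell to 1.53. Both lie close to the spread of 1.10 in the main setting. The replicate spread under these alternatives was not computed. The number of clusters differed in the same direction, 18.5 and 21.5 per Mb on X against 42.5 and 37.5 per Mb on 3R. With 2 replicates an exact two-sided sign-flip permutation cannot go below p = 0.5, so no test was run and differences are read against the replicate spread.

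Both stretches lay far below stretches of the same length at the centromere-side ends of the assembled left arms of chromosomes 2 and 3 (2L and 3L). The lists also hold separate heterochromatin scaffolds such as 3RHet, which are not part of these stretches. The ends of the assembled arms need not be equivalent positions, so these values do not describe all pericentric sequence. Proximal 2L exceeded proximal X by 30.5 ± 0.50 points and proximal 3R by 25.8 ± 1.60 points (SD, n = 2). Proximal 3L exceeded them by 35.0 ± 3.55 and 30.2 ± 4.65 points. In the combined list these 4 differences were larger, from 30.5 to 48.0 points.

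X and 3R differed in how the stretch stood within its own arm. When each arm was tiled in whole 2 Mb pieces from the proximal end, a layout added after the values were seen, the proximal tile of 3R was the highest of the arm in both replicates. The 12 distal tiles of 3R ranged from 4.36% to 8.04% in replicate 1 and from 3.55% to 6.01% in replicate 2, against 9.90% and 8.65% proximally. The adjoining tile, from 2 to 4 Mb, fell back to 4.42% and 4.09%. On X the proximal tile was the lowest of the arm in replicate 1, where the 10 distal tiles ranged from 5.47% to 11.3%. In replicate 2 it was not the lowest: 2 of the 10 distal tiles, which ranged from 3.92% to 8.69%, lay below it. The distal part of X also differed more between replicates than the proximal part, with 8.06% and 5.83% covered against 4.40% and 4.71%. The depression of proximal X against distal X was therefore 3.65 points in replicate 1 and only 1.12 in replicate 2.

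**Figure D1:**
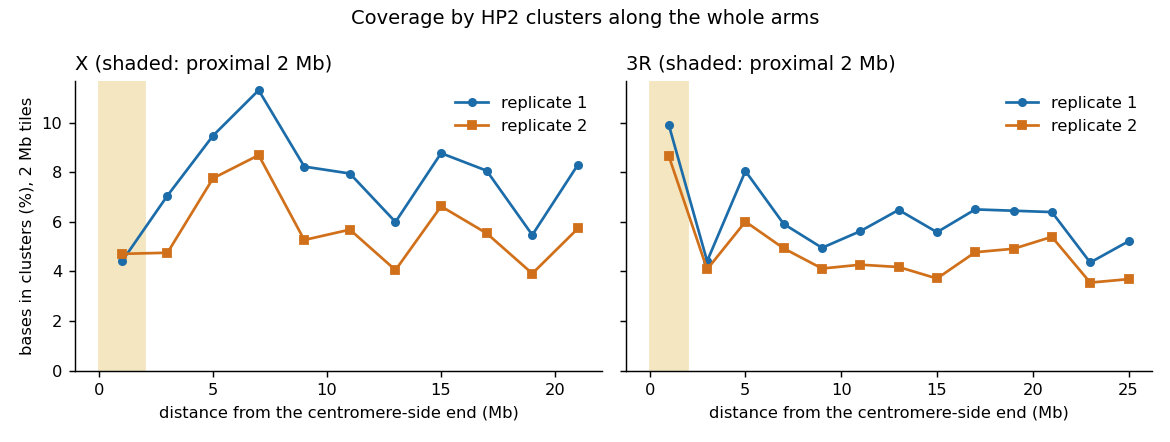
Percent of bases in clusters (y axis) in 2 Mb tiles counted from the centromere-side end of X (left) and 3R (right), with 1 line per replicate and the proximal tile shaded. On 3R the shaded tile is the highest of the arm at 9.90% and 8.65%; on X it is the lowest in replicate 1 at 4.40% and lies among the lower tiles in replicate 2 at 4.71%.

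Median cluster lengths were close to those elsewhere on the arms. Replicate 1 had a median length of 2142 bp on proximal X and 2064 bp on distal X. Replicate 2 had 1935 bp and 2018 bp. On proximal 3R it was 2161 bp and 2102 bp, against 2059.5 bp and 2036.5 bp on distal 3R. On X 5 of 37 clusters in replicate 1 (13.5%) and 6 of 43 in replicate 2 (14.0%) were longer than 3 kb, and on 3R 11 of 85 (12.9%) and 8 of 75 (10.7%). The whole lists held 18.8% and 19.8% of such clusters, distal X 13.3% and 9.98%, and distal 3R only 8.26% and 5.93%, below proximal 3R. On proximal 2L the shares were 43.8% and 47.3%, and on proximal 3L 32.1% and 39.8%. The longest cluster measured 6637 bp on X and 7876 bp on 3R in the replicates, against 42064 bp on proximal 2L and 56646 bp on proximal 3L.

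The same shape appeared in bins of 1 kb, of which each stretch has 2000. Clusters touched 125 bins of proximal X in replicate 1 (6.25%) and 135 in replicate 2 (6.75%). Over the whole assembly without Uextra, the shares of bins touched were 13.3% and 12.1%. Proximal 3R stood near these shares, with 278 bins (13.9%) and 241 bins (12.05%). In the combined list 266 bins of X (13.3%) and 372 of 3R (18.6%) were touched, against 19.1% in the whole assembly. Touched bins came in runs with a median of 3 kb in each list and stretch. The longest run was 8 kb on X in both replicates, and 10 kb and 9 kb on 3R. Clusters were spaced more widely than on proximal 2L, but no more widely than on distal 3R. The median gap between neighbours was 10.4 kb and 10.9 kb on X and 12.5 kb and 14.6 kb on 3R, against 2.86 kb and 2.65 kb on proximal 2L. It was 10.1 kb and 13.3 kb on distal X and 18.0 kb and 25.2 kb on distal 3R.

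Within proximal X the clusters crowded in the middle. The 750 kb between 500 and 1250 kb from the end (21172828 to 21922827) held 24 of 37 clusters in replicate 1 and 28 of 43 in replicate 2. They made up 68.8% and 66.3% of the covered bases. In bins of 250 kb, coverage there was 7.25%, 7.24% and 9.74% in replicate 1 and 8.19%, 8.31% and 8.50% in replicate 2. The other 5 bins lay between 0% and 3.48% in replicate 1 and between 0.626% and 3.51% in replicate 2. The 81 distal bins of that size on X had medians of 7.34% and 5.11% and reached 28.8% and 24.3%. Of them, 26 and 18 lay above the highest proximal bin. The distal median was exceeded by 1 of the 8 proximal bins in replicate 1 and by 3 in replicate 2. In the combined list the highest proximal bin reached 19.5%, against a distal median of 10.4%, and 6 of the 81 distal bins lay above it. On both sides of the middle of proximal X stood long stretches that neither replicate called. One ran for 321.1 kb from 22084666 to 22405806 on the centromere side. Others ran for 266.1 kb from 20632286 to 20898357 and for 207.9 kb from 20422828, the limit of the stretch, to 20630720. Only 1 cluster, of replicate 2, separated the last pair, from 20630721 to 20632285, with a score of 0.380. The combined list placed 3, 1 and 3 clusters in these free stretches, covering at most 2.05% of each. Such lengths were not particular to proximal X: the largest gap on distal X was 377.0 kb in replicate 1 and 377.2 kb in replicate 2. Of the 40 windows of 50 kb on proximal X, 18 held no cluster base in either replicate.

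Beyond the largest free stretch, the last 20 kb of assembled X were covered again, at 43.5% in replicate 1 and 43.9% in replicate 2. Replicate 1 placed 4 clusters there and replicate 2 placed 3. The strongest of replicate 1 ran from 22405807 to 22408165 with a score of 2.03. Replicate 2 had there 1 longer cluster of 4510 bp, from 22405935 to 22410444, with a score of 1.13.

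Proximal 3R began with clusters at its very end. All 3 lists held a cluster starting at base 2, and the outermost 20 kb were covered at 33.6% and 34.3%. The first 250 kb formed the densest bin, at 20.2% in replicate 1 and 19.6% in replicate 2, with 18 clusters in each. All 103 distal bins of that size on 3R lay below this bin, their highest being 16.0% and 14.0%. Coverage then fell to 7.77% and 7.21% in the next bin. A second crowd lay between 1 and 1.5 Mb, with 32 of 85 clusters in replicate 1 and 27 of 75 in replicate 2, and coverage of 14.1% and 11.8%. From 1.5 Mb to the limit the cover declined to 7.16% and 5.87% and then to 1.71% and 1.68%, with 2 clusters in the last bin in each replicate. The longest stretches free of clusters in both replicates ran for 160.0 kb from 306122 to 466139, for 144.1 kb from 1689171 to 1833279 and for 90.1 kb from 1835500 to 1925599. Distal 3R held longer gaps, the largest being 370.9 kb in replicate 1 and 398.6 kb in replicate 2. Of the 40 windows of 50 kb on proximal 3R, 7 were empty in both replicates.

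**Figure D2:**
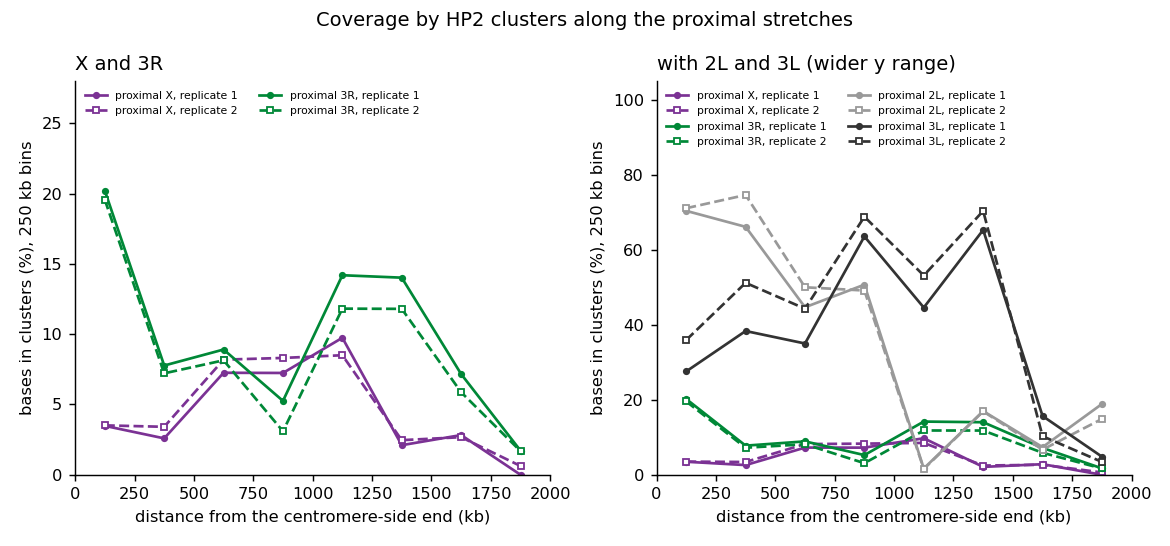
Percent of bases in clusters (y axis) in 250 kb bins by distance from the centromere-side end in kb (x axis); solid lines with filled marks are replicate 1, dashed lines with open marks replicate 2. The left panel shows the rise of X between 500 and 1250 kb and the crowds of 3R in the first bin and from 1000 to 1500 kb; the right panel adds proximal 2L and 3L, which reach 74.6% and 70.4%.

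The limit of 2 Mb fell in thinly covered sequence on both arms. On X the clusters nearest to it lay at 20898358 to 20900493 (score 0.903) on the inside in replicate 1 and at 20380703 to 20383401 (0.647) outside. In replicate 2 the nearest on the inside was the cluster starting at 20630721, and outside that from 20380695 to 20383491 (0.762). On 3R the last cluster inside ran from 1925600 to 1927673 (0.867) in replicate 1 and from 1925635 to 1927684 (0.766) in replicate 2. The first outside started at 2175676 (0.391) and at 2170786 (0.362).

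The strongest site of proximal X was a cluster of 6532 bp in replicate 1, from 21499514 to 21506045, 920.0 kb from the end. It was both the longest and the highest-scoring shared cluster there. Its score was given by the authors on a scale that no source used here explains, and was 2.54 in replicate 1, 2.75 in replicate 2 and 2.59 in the combined list. Replicate 2 covered 99.95% of it, and its own cluster ran from 21499406 to 21506042. That score exceeded or equalled 98.6% of its list in replicate 1 and 98.7% in replicate 2.

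A group of sites lay nearer to the centromere, between 539.5 and 577.4 kb from the end. The cluster from 21843194 to 21847621 scored 1.93 and 1.88, that from 21856180 to 21859279 scored 1.60 and 1.56, and that from 21881632 to 21884965 scored 1.10 and 0.906. All 3 lay in the window from 21842828 to 21892827, the second densest of the stretch, at 26.7% and 27.8%. The densest, from 21192828 to 21242827, was 32.6% and 31.0% covered with 7 clusters in each replicate. Its clusters were weaker, the highest being that from 21228198 to 21230339, at 1.28 and 1.31. Outside the crowd, 1516.7 kb from the end, the cluster from 20904710 to 20907464 scored 1.59 and 1.31. The cluster from 22405807 to 22408165, described above for the end of X, scored 2.03 in replicate 1. The remaining shared clusters among the 10 longest and the 10 highest-scoring of X scored between 0.773 and 1.35 in replicate 1.

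The strongest site of proximal 3R lay 58.6 kb from the end, from 56599 to 60600. It scored 3.18 in replicate 1, 3.33 in replicate 2 and 2.81 in the combined list, at or above 99.6% and 99.7% of the replicate lists. Next came the cluster from 636753 to 640133, with 2.49 and 2.86, and that from 1041831 to 1044442, with 2.49 and 2.38. The longest, from 222587 to 230462 (7876 bp), scored 2.10 and 2.24. The cluster from 846087 to 848416 scored 2.22 in replicate 1 and 1.35 in replicate 2. The long clusters of 3R were not all strong. Those from 4974 to 9178 and from 1308702 to 1312747, the next in length, scored only 0.607 and 0.620 in replicate 1, below its list median of 0.719.

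On 3R 6 clusters of replicate 1 and 4 of replicate 2 scored over 2, and on X 2 and 1. In the highest 10% of their list were 13 of 85 clusters on 3R in replicate 1 (15.3%, 95% Wilson interval 9.16% to 24.4%) and 10 of 75 in replicate 2 (13.3%, 7.41% to 22.8%). On X there were 6 of 37 (16.2%, 7.65% to 31.1%) and 3 of 43 (6.98%, 2.40% to 18.6%). All 4 intervals contain 10%, the share of a whole list, so a surplus of strong sites was not detectable with this number of clusters. The intervals cover counting error only.

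**Figure D3:**
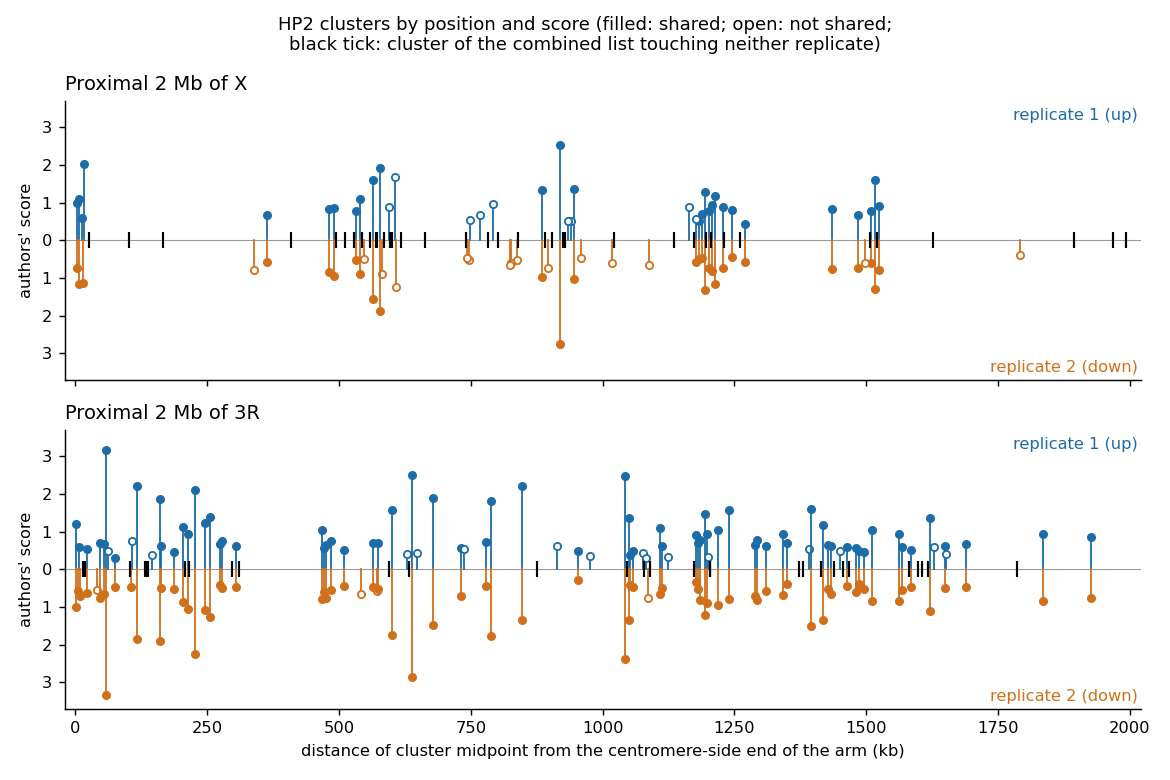
Each stem is 1 cluster, placed by the distance of its midpoint from the centromere-side end in kb (x axis) and as tall as the authors' score (y axis), with replicate 1 upwards and replicate 2 downwards. Filled heads are clusters shared by at least 50% of their bases, open heads are not, and black ticks are clusters of the combined list that touch neither replicate. The tallest stems are those at 920.0 kb on X (2.54 and 2.75) and at 58.6 kb on 3R (3.18 and 3.33).

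Median scores were slightly higher than on the rest of the arm. On X they were 0.868 and 0.736 proximally against 0.732 and 0.705 distally, a mean difference of 0.0839 ± 0.0744 (SD, n = 2), close to its spread. On 3R they were 0.686 and 0.660 against 0.609 and 0.599, a mean difference of 0.0687 ± 0.0110 (SD, n = 2). Among clusters of at most 3 kb the differences were 0.0855 on X and 0.0822 on 3R.

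The replicates shared a larger part of their bases on 3R than on X. Shared clusters are those with 50% or more of their length inside clusters called in the other replicate. On proximal 3R 69 of the 85 in replicate 1 were shared (81.2%, Wilson interval 71.6% to 88.1%), against 74.3% of the whole list. On distal 3R the share of replicate 1 was 72.3% (68.9% to 75.5%). Of replicate 2, 71 of 75 were shared (94.7%, 87.1% to 97.9%), against 83.5% of the whole list. On proximal X 28 of the 37 in replicate 1 were shared (75.7%, 59.9% to 86.6%), close to the whole list. The share of replicate 1 on distal X was lower, 67.4% (63.9% to 70.7%), with overlapping intervals. Of replicate 2 only 28 of 43 were shared (65.1%, 50.2% to 77.6%). That lay below the 90.9% of its clusters on distal X (88.2% to 93.0%) with no overlap of the intervals. It was near the 65.3% on proximal 3L (58.4% to 71.6%), while proximal 2L had 84.5% (77.3% to 89.7%). The intervals cover counting error only, and the clusters are sites of 1 genome, not replicates. Of the bases in either replicate, 73.5% were in both on 3R and 59.1% on X, against 66.9% on distal 3R and 60.7% on distal X.

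Where the replicates met, they placed the sites alike. Matching clusters with 50% overlap of both gave 26 pairs on X and 68 on 3R. Their midpoints differed by a median of 56.75 bp on X and 66.0 bp on 3R, and 23 of 26 and 58 of 68 lay within 200 bp. The overlap required for a match limits these offsets. The score as deposited was the lower number in replicate 2 in 19 of 26 pairs on X and in 47 of 68 on 3R. Whether the lists share a score scale is not known, so these counts show no difference in binding. Across pairs the scores had a Spearman rho of 0.91 on X (n = 26) and 0.84 on 3R (n = 68), or 0.88 and 0.83 without the 2 highest pairs. The pairs share their arm and their position in both lists, and they are sites of 1 genome, not replicates.

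**Figure D4:**
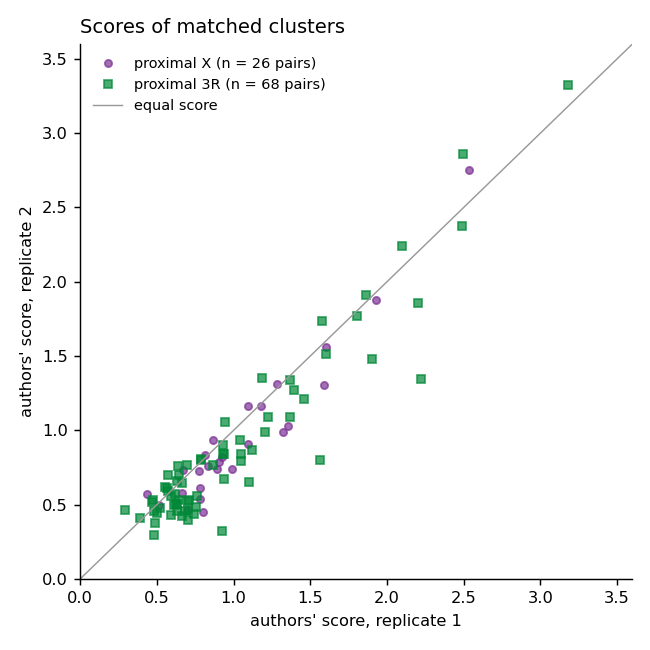
Authors' score in replicate 1 (x axis) against replicate 2 (y axis) for matched clusters, with 26 pairs on proximal X as circles and 68 on proximal 3R as squares; the line marks equal scores. Most points lie on the lower side of the line, 19 of 26 and 47 of 68.

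Clusters found in 1 replicate alone included high-scoring ones on X. On 3R the 15 clusters of replicate 1 that touched no cluster of replicate 2 scored at most 0.621, all below the median of their list, and the 4 of replicate 2 scored between 0.544 and 0.750. They were 17.6% and 5.33% of the clusters of proximal 3R, against 27.5% and 6.67% on distal 3R. On X 8 clusters of replicate 1 touched none of replicate 2 (21.6%, against 31.7% on distal X). Of these 8, 4 scored at or above the list median, as 50.0% of the whole list does. The highest, from 21815996 to 21817403, scored 1.67. In replicate 2, 15 touched none of replicate 1, with scores up to 1.25, and again 4 were at or above the median. These 15 were 34.9% of its clusters on proximal X, against 8.35% on distal X, 10.1% on proximal 2L and 25.5% on proximal 3L. Over the whole lists, 74.3% of clusters in replicate 1 and 83.5% in replicate 2 were shared, by the 50% measure given above. At least 50% of the bases lay in the combined list for all 8 and for 13 of 15 of these clusters on X, and for all 15 and all 4 on 3R.

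The combined list added more to X than to 3R. It covered 9.31% of proximal X and 13.4% of proximal 3R, and held 84 and 116 clusters. On X 37 of its 84 clusters touched neither replicate (44.0%, Wilson interval 33.9% to 54.7%), against 31.4% in the whole list and 29.0% on distal X (26.4% to 31.8%). On 3R 30 of 116 did (25.9%, 18.8% to 34.5%), near the 25.5% on distal 3R. Of the 37 on X, 25 lay between 500 and 1250 kb from the end, as did 57 of all 84. These additional clusters were short, with a median of 1265 bp on X and 1257 bp on 3R. Their median score was 0.476 on X against 0.804 for clusters that touched both replicates, and 0.357 against 0.637 on 3R.

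On X, 5 of the 37 scored over 1 (13.5%), and 3 over 2. The latter ran from 21759026 to 21760512 (2.53), from 21821702 to 21823272 (2.43) and from 21518756 to 21519888 (2.11). The strongest scored nearly as high as the strongest site of both replicates in that list, 2.59. On 3R 0 of 30 scored over 1, and the highest reached 0.450. Distal X had 8 of 307 over 1 (2.61%) and 2 over 2, the highest at 3.11. Distal 3R had 2 of 245 over 1 and 0 over 2. Proximal 2L had 9 of 32 over 1 and 3 over 2, and proximal 3L 10 of 58 and 3. In the whole combined list 257 of 2209 such clusters scored over 1 (11.6%) and 65 over 2, of which 36 lay on the unplaced scaffold U.

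**Figure D5:**
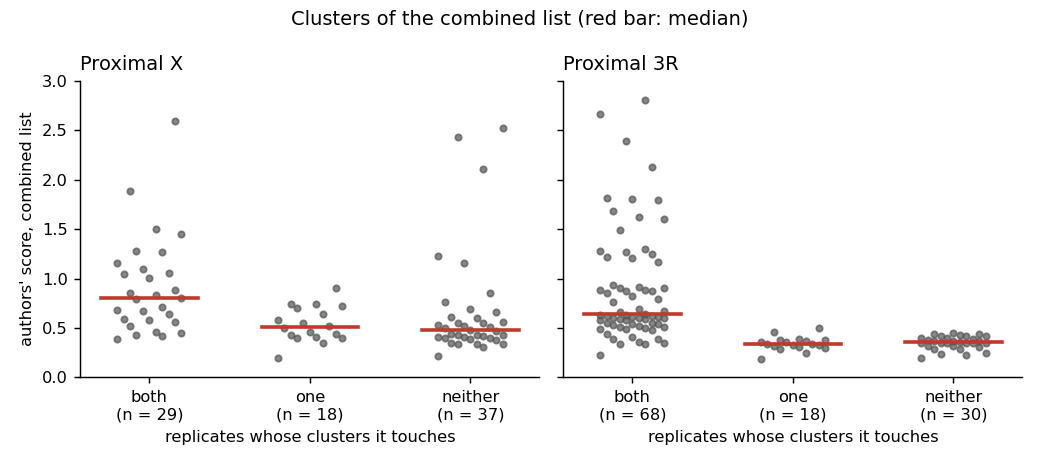
Authors' score of each cluster of the combined list (y axis) by the number of replicates whose clusters it touches (x axis), for proximal X (left) and 3R (right); red bars are medians. On X 3 of the 37 clusters that touch neither replicate score over 2, while on 3R the highest of 30 reaches 0.450.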

How the data were processed

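HP2 was measured by ChIP-seq in 2 ChIP samples with 2 inputs. Per the submitters' processing notes, the aligner was Bowtie 0.12.7. The authors deposited lists of enriched regions on FlyBase r5, per the file headers, each region with 1 score. No source used here gives the scale, the caller or the threshold. The deposited score was used to rank and describe clusters. Median differences were taken within a list, and scores of matched clusters are set side by side as deposited. The 3 lists hold no counts, so depth is unknown, and no input values were analysed here.

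From these, bases in clusters were counted once, in the proximal 2 Mb and in 1 kb and 250 kb bins, with 95% Wilson intervals for shares of clusters (Python 3.11.15, numpy 2.4.6, scipy 1.17.1). Interval functions were tested on simulated data. Members and lists were chosen with earlier results of these data known. Named regions were, per stretch, the 10 longest and 10 highest-scoring shared clusters of replicate 1, the 3 highest-scoring clusters of each replicate that touch none of the other, the 3 highest-scoring of the combined list that touch neither, the 3 longest free stretches, the 3 densest 50 kb windows and the clusters nearest the limit. No test across samples was run.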

Additional observations from a re-analysis of the deposited data

Results flagged for a closer look

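The contrast between the proximal 2 Mb and the rest of the arm had opposite signs on X and 3R in both replicates. Replicate 1 gave -3.65 points on X and 4.14 on 3R. Replicate 2 gave -1.12 and 4.25. The contrast on 3R exceeded that on X by 7.79 and 5.37 points, a mean of 6.58 ± 1.71 (SD, n = 2). This difference was not tested.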

How the results depend on the processing

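All alternatives were planned; 17 results were recomputed under 83. Coverage of proximal X (4.56%) became 3.26% with only high-scoring clusters (those not below their list's median score), 9.31% in the combined list, 5.50% with a stretch of 1 Mb and 5.23% with 4 Mb. That of proximal 3R (9.27%) became 4.56%, 13.4% and, with 4 Mb, 6.76%. Its excess over distal 3R (4.19 points) became 2.16 with high-scoring clusters, 4.28 with clusters under 1 kb apart merged, 5.71 in the combined list, 4.81 with 1 Mb and 1.61 with 4 Mb. The excess of proximal 3R over proximal X (4.72 points) fell to 1.30 with high-scoring clusters and 1.53 with 4 Mb. None of these contrasts changed sign, nor did that on X. Touched bins (6.50% on X, 12.975% on 3R) became 4.60% and 9.375% when 50% of a bin had to be covered, 12.9% and 26.5% with 5 kb bins, and 13.3% and 18.6% in the combined list. On 3R the score difference became 0.0924 in the combined list and 0.0822 with clusters of at most 3 kb, and the length difference (83.5 bp) 109.0 bp in the combined list. On X the length difference, -2.50 bp, had no stable sign: -122.0 bp in the combined list, and from -83.0 to 78.0 bp with 1 replicate left out. For high-scoring clusters and the combined list the cause was not tested. Shares of shared clusters stayed within their Wilson intervals. Shared bases ranged from 53.1% to 65.4% on X and from 71.0% to 74.6% on 3R. No paired analysis was possible because the numbers in the labels pair a ChIP with its input and no input list was analysed; contrasts between stretches were taken within each replicate. Depth and threshold are unknown, so sequence without a cluster may still bind HP2.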

Other observations

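On proximal X, clusters missing from the other replicate, or from both, lay side by side in a span of under 10 kb, a place singled out after its values were seen. The highest-scoring cluster of replicate 2 that touched none of replicate 1 ran from 21814123 to 21815496 with a score of 1.25, and its counterpart, the highest-scoring of replicate 1 that touched none of replicate 2, from 21815996 to 21817403 with 1.67. The second-highest cluster of the combined list that touched neither replicate, with 2.43, followed from 21821702 to 21823272. Each replicate list held its score at a high rank, at or above 86.0% of replicate 2 and 94.0% of replicate 1, although the other replicate had no cluster there. The combined list covered 43.8% of the replicate 2 cluster and 100.0% of that of replicate 1.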
